A study of Homo sapiens with 24 samples.

Results

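The 203 genes described here were lower in SJSA-1 osteosarcoma cells at the lowest dose of the CDK12/CDK13 inhibitor THZ531 and close to the vehicle level at the highest. They were chosen by measured values. Of 18132 genes, each represented by its brightest probe set over the 24 arrays, 6568 had a mean log2 intensity above log2(100) on the SJSA-1 DMSO arrays and are called active. Members were the 203 active genes (3.09%) whose mean log2 intensity lay at least 0.6 below DMSO at 50 nM and less than 0.2 below DMSO at 800 nM. The SJSA-1 changes at 50 and 800 nM are therefore given only to describe the choice, and tests were made only at 200 nM in SJSA-1 and in U2-OS. The SJSA-1 tests share their DMSO arrays with the choice and are not independent of it. A name such as "50 nM only" was not borne out by the arrays between these doses, because most members were also lower at 200 nM.

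The series measured total RNA of 2 established human osteosarcoma lines, U2-OS and SJSA-1, on Affymetrix PrimeView arrays. Each line was treated for 6 h with DMSO as the vehicle control or with THZ531 at 50, 200 or 800 nM, which gave 8 groups of 3 arrays. All groups of a line shared the same medium, serum and time, and the labels name no other agent and no engineered allele. No source says whether a group's arrays stand for independent cultures, and every p-value reflects only how far such arrays differed, possibly for technical reasons alone. As a check of the lines, MDM2, a gene amplified in SJSA-1, had a DMSO log2 intensity of 10.66 ± 0.10 (SD, n = 3) there, and in U2-OS its intensity was 7.18 ± 0.03 (SD, n = 3). Of 11 osteoblast markers, 0 were active in SJSA-1 and 4 in U2-OS (RUNX2, SPP1, COL1A1 and BMP4). The extraction text of the labels speaks of a tissue other than these lines, whereas of 14 measured neuron and glia markers 0 were active in SJSA-1 and 1, NEFL, in U2-OS. None of 14 measured leukocyte and endothelium markers was active in either line. Median intensities of the arrays ran from 30.1 to 33.6.

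THZ531 is a covalent inhibitor of CDK12 and CDK13, kinases that phosphorylate the C-terminal domain of RNA polymerase II while it transcribes. CDK12 is known for sustaining the transcription of long genes and of many DNA repair genes, among them BRCA1, and for limiting the use of poly(A) signals inside genes. An mRNA level on an array depends on synthesis and on decay, and a probe set reads only the stretch of the transcript that its probes cover.

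By the choice made, the members' median log2 change in SJSA-1 was -0.75 at 50 nM and -0.02 at 800 nM, against -0.05 and 0.02 over all active genes. At 50 nM 1058 active genes (16.1%) lay at least 0.6 below DMSO, and 598 of these lay as far below it at 800 nM too. The members were at least 2-fold lower at 50 nM in 25 cases, and 89 of the 203 had a mean above DMSO at 800 nM. All 3 arrays at 50 nM lay below all 3 DMSO arrays for each of the 203 members (42.5% of all active genes), and all 3 arrays at 800 nM did so for 37 (38.6%), both as the choice sets them. The changes are relative to the other genes on the same array. In a bulk sample fewer cells expressing a gene and less of its RNA per cell cannot be told apart.

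**Figure D1:**
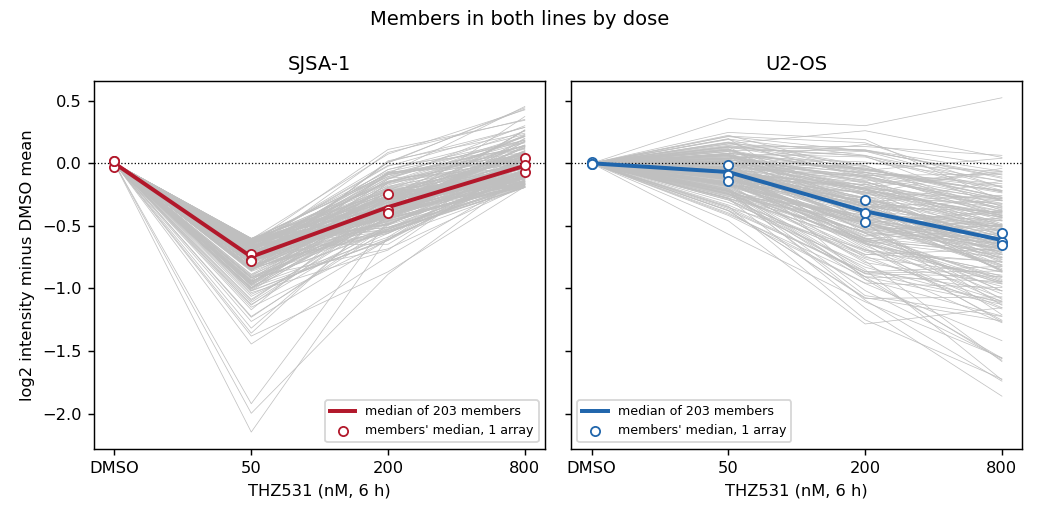
Log2 change from the DMSO mean (y axis) by THZ531 dose in nM (x axis) in SJSA-1 and U2-OS, with a grey line for each of the 203 members, a thick line for their median and circles for their median on each array. In SJSA-1 the median ran from -0.75 at 50 nM, where members were chosen, through -0.35 at 200 nM to -0.02 at 800 nM, whereas in U2-OS it ran from -0.07 through -0.38 to -0.61.

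ATP10D, a phospholipid-transporting ATPase, had the lowest change at 50 nM. Its log2 intensity in SJSA-1 was 7.12, 7.18 and 7.35 with DMSO, 5.20, 4.85 and 5.16 at 50 nM, 6.79, 6.57 and 6.52 at 200 nM, and 7.20, 7.46 and 7.20 at 800 nM. In U2-OS it was 6.92, 6.77 and 6.82 with DMSO, 7.03, 6.83 and 6.75 at 50 nM, 5.84, 5.67 and 6.22 at 200 nM, and 5.38, 5.11 and 5.35 at 800 nM. The SJSA-1 arrays at 50 nM lay below every other array of that line and those at 800 nM overlapped DMSO, while in U2-OS the arrays at 50 nM overlapped DMSO and those at 800 nM were the lowest. The change chosen on at 50 nM in SJSA-1 was 4.43-fold lower. At 200 nM the log2 change in SJSA-1 was -0.59 ± 0.11 (SE, limma adjusted p = 0.000234), and at 800 nM in U2-OS it was -1.56 ± 0.12 (SE, adjusted p = 2.94e-07), a 2.94-fold lower intensity.

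NRP1, neuropilin-1, a co-receptor for semaphorins and VEGF, had the same course. Its log2 intensity in SJSA-1 was 6.54, 6.76 and 6.85 with DMSO, 4.83, 4.83 and 4.73 at 50 nM, 6.46, 6.15 and 6.16 at 200 nM, and 6.87, 6.98 and 6.89 at 800 nM. In U2-OS it was 7.17, 7.29 and 7.40 with DMSO, 7.19, 7.09 and 6.74 at 50 nM, 6.04, 6.00 and 6.35 at 200 nM, and 5.36, 5.40 and 5.52 at 800 nM. Every SJSA-1 array at 800 nM lay above every DMSO array of that line, whereas in U2-OS the arrays at 800 nM lay furthest below DMSO. NRP1 fell in U2-OS by 1.86 ± 0.12 (log2, SE, adjusted p = 4.11e-08) at 800 nM, the largest fall among members in that line, or 3.63-fold. In SJSA-1 it fell by 0.46 at 200 nM (adjusted p = 0.000416).

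CENPQ, a subunit of the constitutive centromere complex, and KIF14, a mitotic kinesin needed for cytokinesis, were the lowest of the cell division genes at 50 nM. CENPQ log2 intensity in SJSA-1 was 7.81, 7.97 and 7.91 with DMSO, 6.52, 6.37 and 6.47 at 50 nM, 7.39, 6.98 and 7.09 at 200 nM, and 7.63, 7.90 and 7.83 at 800 nM. In U2-OS it was 7.85, 7.72 and 7.53 with DMSO, 7.62, 7.46 and 7.41 at 50 nM, 6.90, 6.68 and 6.97 at 200 nM, and 5.88, 5.88 and 6.15 at 800 nM. At 200 nM the 3 arrays of either line lay below all its DMSO arrays without overlap. CENPQ fell by 0.74 ± 0.10 (log2, SE, adjusted p = 1.42e-05) at 200 nM in SJSA-1 and by 1.73 ± 0.10 (adjusted p = 2.58e-08) at 800 nM in U2-OS. KIF14 log2 intensity in SJSA-1 was 7.33, 7.20 and 7.37 with DMSO, 6.00, 5.74 and 6.02 at 50 nM, 6.56, 6.36 and 6.38 at 200 nM, and 6.93, 7.22 and 7.19 at 800 nM. Its fall at 200 nM in SJSA-1, 0.87 ± 0.09 (log2, SE, adjusted p = 2.18e-06), was among the 5 largest of the members, and in U2-OS it fell by 1.27 (adjusted p = 4.2e-06) at 800 nM.

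BRCA1, a homologous recombination factor, had log2 intensities in SJSA-1 of 7.02, 7.16 and 7.05 with DMSO, 6.00, 5.91 and 5.99 at 50 nM, 6.81, 6.59 and 6.56 at 200 nM, and 6.96, 7.28 and 7.10 at 800 nM. In U2-OS they were 7.16, 6.91 and 6.61 with DMSO, 6.81, 6.67 and 6.48 at 50 nM, 5.87, 5.51 and 6.13 at 200 nM, and 5.67, 5.63 and 5.71 at 800 nM. The SJSA-1 arrays at 800 nM overlapped DMSO, and the U2-OS arrays at 200 and 800 nM did not. BRCA1 fell by 0.42 at 200 nM in SJSA-1 (adjusted p = 0.000422), by 1.06 at 200 nM in U2-OS (adjusted p = 0.000157) and by 1.22 at 800 nM in U2-OS (adjusted p = 1.72e-05). MYPN, myopalladin, which anchors actin in muscle sarcomeres, was chosen on a change of -2.00 at 50 nM and fell by 0.89 at 200 nM in SJSA-1 (adjusted p = 0.00992). Its U2-OS intensity was not active, so no test was made there.

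The other members among the 10 lowest at 50 nM were FCHO2, an endocytic adaptor, OSGEPL1, a mitochondrial tRNA-modifying enzyme, PCMTD1, METTL15, a methyltransferase of mitochondrial ribosomal RNA, and ICE2. At 200 nM in SJSA-1 FCHO2 fell by 0.36 (adjusted p = 0.0167), OSGEPL1 by 0.38 (adjusted p = 0.00303), PCMTD1 by 0.61 (adjusted p = 0.000337) and METTL15 by 0.50 (adjusted p = 0.00266), while the mean over all METTL15 probe sets changed by 0.06. These 4 genes were not active in U2-OS, where their untested log2 changes at 800 nM were -0.33, -1.72, -1.08 and -0.86. PTER, a phosphotriesterase-related protein, had U2-OS log2 intensities of 6.70, 6.69 and 6.66 with DMSO, 6.63, 6.46 and 6.30 at 50 nM, 5.57, 5.47 and 5.73 at 200 nM, and 5.01, 4.71 and 5.11 at 800 nM. No U2-OS dose overlapped the next, and PTER fell by 1.74 at 800 nM (adjusted p = 2.8e-08). In SJSA-1 it fell by 0.25 at 200 nM (adjusted p = 0.00517), and its 800 nM arrays, at 7.63, 7.71 and 7.75, lay above the DMSO arrays at 7.44, 7.51 and 7.46. NEMP1, a nuclear envelope protein, fell by 1.58 at 800 nM in U2-OS (adjusted p = 5.61e-09) and by 0.28 at 200 nM in SJSA-1 (adjusted p = 0.000326).

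**Figure D2:**
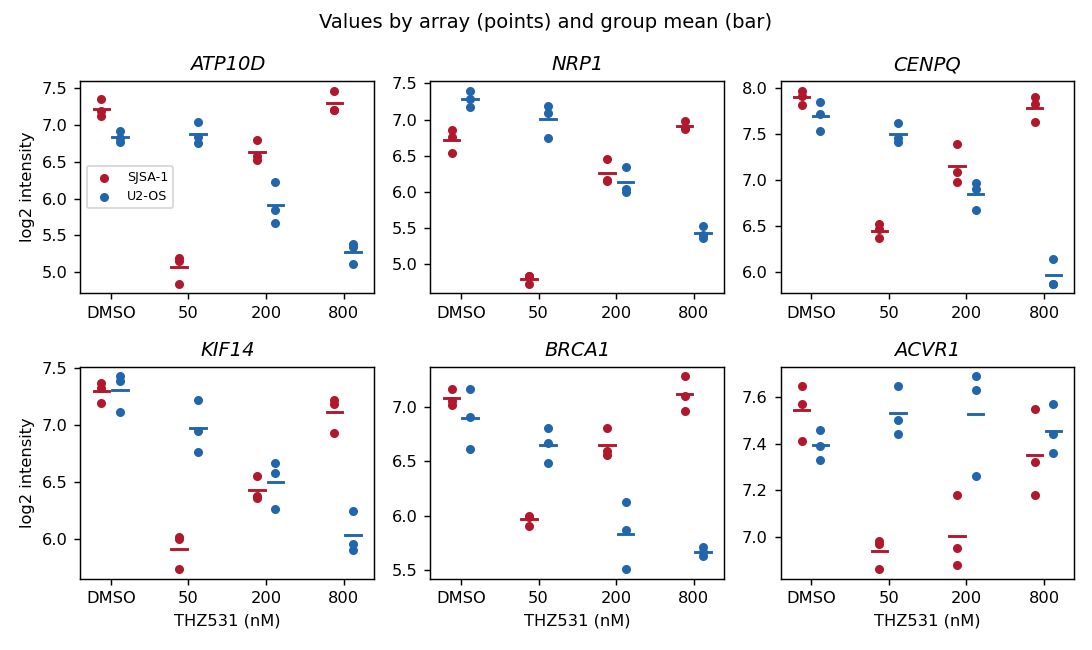
Log2 intensity (y axis) of ATP10D, NRP1, CENPQ, KIF14, BRCA1 and ACVR1 by THZ531 dose in nM (x axis) in SJSA-1 and U2-OS, with a point for each array and a bar for the mean of 3. In SJSA-1 the 50 nM mean is lowest in all 6 genes, and in U2-OS the 800 nM mean is lowest in all but ACVR1.

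Promoters of 3 of these members that were active in both lines are shown because the members moved together on the arrays. The sequences are RefSeq's (GRCh38.p14), 250 bases before to 50 after the annotated start, and 176 of the 203 members had an entry. Capitals mark matches on either strand to GGGCGG, known as the GC box, to CCAAT, a site of the factor NF-Y, and to TTTGAA, the CHR element of cell cycle promoters. ATP10D lies at chr4:47485025-47485324 (plus strand), with a pair of GC boxes that overlap each other. CENPQ lies at chr6:49463120-49463419 (plus strand), and KIF14 at chr1:200620702-200621001 (minus strand).
ATP10D: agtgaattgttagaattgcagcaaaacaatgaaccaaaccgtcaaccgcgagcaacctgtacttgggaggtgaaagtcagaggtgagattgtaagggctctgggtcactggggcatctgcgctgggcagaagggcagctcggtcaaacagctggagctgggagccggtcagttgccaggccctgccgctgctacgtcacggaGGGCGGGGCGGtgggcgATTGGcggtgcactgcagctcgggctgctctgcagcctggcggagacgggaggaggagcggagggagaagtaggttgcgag
CENPQ: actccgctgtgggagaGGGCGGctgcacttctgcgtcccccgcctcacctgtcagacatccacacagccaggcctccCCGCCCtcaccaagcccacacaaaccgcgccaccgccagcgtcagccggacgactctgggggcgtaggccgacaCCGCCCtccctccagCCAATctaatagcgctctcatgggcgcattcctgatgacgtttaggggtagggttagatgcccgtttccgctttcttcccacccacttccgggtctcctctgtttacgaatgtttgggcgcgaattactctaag
KIF14: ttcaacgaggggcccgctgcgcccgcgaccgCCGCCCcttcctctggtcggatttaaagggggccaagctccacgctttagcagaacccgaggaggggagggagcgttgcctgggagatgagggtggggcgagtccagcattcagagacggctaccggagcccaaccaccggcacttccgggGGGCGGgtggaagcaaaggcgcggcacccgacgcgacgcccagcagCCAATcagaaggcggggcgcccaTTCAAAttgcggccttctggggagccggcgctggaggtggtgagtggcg
All 3 windows held CCAAT and at least 1 GC box, and KIF14 alone of the 3 held TTTGAA. For most motifs the shares lay near those of active genes. CCAAT stood in 36.4% of the members' promoters, 38.1% of the 5610 promoters of active genes and 35.7% of all 27305 in the table. GGGCGG stood in 69.9% of the members' promoters, 72.5% of those of active genes and 44.6% of all in the table, and TTTGAA in 12.5%, 9.93% and 15.4%. Of the other motifs searched on both strands, the CRE (TGACGTCA) stood in 5.11% and 3.78%, NRF1 (GCATGCGC) in 4.55% and 6.45%, E2F (TTTGGCGC or TTTCCCGC) in 2.84% and 4.44%, and the TATA box (TATAAA) in 4.55% and 5.24%. Median GC content was 66.0% in the members' promoters and 65.3% in those of active genes.

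The SJSA-1 arrays at 200 nM, which did not enter the choice, were compared with the DMSO arrays, which did. At 200 nM 173 of the 203 members were lower than DMSO by limma (adjusted p under 0.05), and 41.0% of all active genes were. None of the 203 was higher, against 33.8% of all active genes, and 30 did not pass the test. The median change of the members was -0.35 (range -0.89 to 0.11), against -0.02 over all active genes. On the 3 arrays the members' median was -0.25, -0.37 and -0.39. For 164 members all 3 arrays at 200 nM lay below all 3 DMSO arrays, against 41.2% of all active genes.

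The largest falls at 200 nM were those of MYPN, KIF14, CENPQ, MBNL2 and CLOCK. MBNL2, a muscleblind splicing regulator, fell by 0.69 (adjusted p = 0.000373) and CLOCK, a circadian transcription factor, by 0.68 (adjusted p = 2.18e-06). CLOCK log2 intensity was 7.03, 7.06 and 7.20 with DMSO, 6.53, 6.35 and 6.36 at 200 nM, and 6.78, 6.99 and 6.99 at 800 nM. At the other end stood UQCC1, an assembly factor of respiratory complex III, ABR, a regulator of small GTPases, ATG12, an autophagy conjugation protein, CEP41, a centrosomal and ciliary protein, and C6orf120. UQCC1 log2 intensity was 6.80, 6.85 and 6.81 with DMSO and 6.75, 6.89 and 6.85 at 200 nM, a change of 0.01 (adjusted p = 0.85). The UQCC1 arrays at 200 nM overlapped DMSO, and those at 800 nM, at 7.15, 7.10 and 7.07, lay above it. CEP41 changed by 0.09 at 200 nM (adjusted p = 0.132) and ABR by 0.02 (adjusted p = 0.776).

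In U2-OS, whose changes took no part in the choice, 159 of the 203 members were active and were tested, and 44 were not. Few moved at 50 nM, where 12 of 159 were lower (3.19% of all genes active in U2-OS) and 1, CD58, was higher (3.40%). At 200 nM 117 were lower (25.0%) and 2, CD58 and PTPN2, were higher (18.2%). At 800 nM 143 of 159 were lower (36.5%), 25 of them by at least 2-fold (4.41%), 0 were higher (25.3%), and 16 did not pass the test. The median change over all 203 members was -0.07, -0.38 and -0.61 at 50, 200 and 800 nM, against 0.00, -0.01 and -0.03 over the genes active in SJSA-1. The U2-OS mean was lower at each higher dose for 138 of the 159, against 37.0% of genes active in both lines. Of all 203, 198 were lower at 800 than at 50 nM in U2-OS (54.6% of genes active in SJSA-1), and 121 of 159 were called lower both there at 800 nM and in SJSA-1 at 200 nM (21.5% of genes active in both lines).

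The dose order of the members thus differed between the lines in their means. Their median was lowest at 50 nM in SJSA-1, where they were chosen, and lowest at 800 nM in U2-OS. On single U2-OS arrays the members' median was -0.01, -0.09 and -0.14 at 50 nM, -0.39, -0.47 and -0.29 at 200 nM, and -0.63, -0.65 and -0.55 at 800 nM, so the doses did not overlap. Over the 5851 genes active in both lines, the SJSA-1 change at 50 nM and the U2-OS change at 800 nM had Pearson r = 0.80 (0.74 by Spearman ranks), and r = 0.79 over the 5692 genes that were not members, a description across genes that are not independent and share their arrays. The SJSA-1 and U2-OS changes at 800 nM had r = 0.28.

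For comparison, 385 active genes had the opposite choice, at least 0.6 below DMSO at 800 nM and less than 0.2 below it at 50 nM in SJSA-1. Their median U2-OS change was 0.07, 0.22 and 0.32 at 50, 200 and 800 nM. The 598 genes that lay at least 0.6 below DMSO at both doses had medians of -0.02, -0.23 and -0.66 in U2-OS. At 200 nM in SJSA-1 the medians were -0.67 for the 385 genes and -1.49 for the 598, against -0.35 for the members. These differences were not tested.

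The lowest dose already moved 12 members in U2-OS. They were HMMR, KNTC1, SFR1, PRIM1, ICE2, SSU72, CBX5, SNAPIN, MTX2, CCM2, PIGM and UCK1. SFR1, a partner of SWI5, changed by -0.42 at 50 nM and fell by 0.96 at 200 nM (adjusted p = 1.12e-05) and by 1.42 at 800 nM (adjusted p = 8.08e-08). CBX5, heterochromatin protein 1 alpha, had U2-OS log2 intensities of 9.35, 9.29 and 9.26 with DMSO, 8.98, 9.01 and 8.86 at 50 nM, 8.48, 8.38 and 8.41 at 200 nM, and 8.41, 8.43 and 8.48 at 800 nM. Its 50 nM arrays lay below DMSO and above 200 nM without overlap, and the 200 and 800 nM arrays overlapped. The count of 12 rested on single arrays: 1 member was called without U2-OS 50 nM replicate 2, 2 without U2-OS 50 nM replicate 3, and 3, 5 and 6 without U2-OS DMSO replicates 3, 1 and 2. With arrays shifted to their hybridization controls, 0 members were lower and 34 higher at this dose.

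The members were grouped by role after their values were seen, and counts within a group stand beside those of all members, 85.2% lower at 200 nM in SJSA-1 and 73.6% and 89.9% lower at 200 and 800 nM in U2-OS. The shares over all genes tested were 41.0%, 25.0% and 36.5%. No group was tested against the others. Cell division, centrosome and cilium genes, 12 members, were lower at 200 nM in SJSA-1 in 11 cases, all but CEP41 (41.0% of active genes). In U2-OS all 7 that were active were lower at 200 (25.0%) and at 800 nM (36.5%), with a median change over the 12 of -0.80 at 800 nM. HMMR, a spindle-associated hyaluronan receptor, was the third brightest member and fell by 0.36 at 200 nM in SJSA-1 (adjusted p = 2.24e-06) and by 0.38 at 800 nM in U2-OS (adjusted p = 0.000123). KNTC1, a kinetochore protein of the spindle checkpoint, fell by 0.87 at 800 nM in U2-OS (adjusted p = 1.7e-07), and CEP57, a centriole duplication factor, by 1.02 (adjusted p = 6.32e-08). CLASP1, which stabilises microtubule plus ends, fell by 0.55 at 200 nM in SJSA-1 (adjusted p = 5.79e-06) and by 0.30 in U2-OS (adjusted p = 0.00249).

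DNA repair, telomere and replication genes made up 10 members, of which 8 were lower at 200 nM in SJSA-1 (41.0% of active genes) and all 8 active in U2-OS were lower at 200 (25.0%) and at 800 nM (36.5%). Those not past the test in SJSA-1 were BRCC3, a deubiquitinase of BRCA1 complexes, at -0.08 (adjusted p = 0.496), and SWI5 at -0.09 (adjusted p = 0.236). UBE2V2, a ubiquitin-conjugating enzyme variant of DNA damage tolerance, was the second brightest member. Its SJSA-1 log2 intensity was 10.18, 10.26 and 10.11 with DMSO, 9.23, 9.13 and 9.26 at 50 nM, 9.98, 9.86 and 9.89 at 200 nM, and 10.25, 10.48 and 10.35 at 800 nM. The 200 nM arrays lay below DMSO without overlap, and UBE2V2 fell by 0.27 there (adjusted p = 0.00166) and by 0.96 at 800 nM in U2-OS (adjusted p = 4.43e-06). FBH1, a DNA helicase, fell by 0.95 at 800 nM in U2-OS (adjusted p = 1.56e-07), POT1, which binds telomere ends, by 0.65 (adjusted p = 3.54e-07), and PRIM1, the catalytic subunit of primase, by 0.58 (adjusted p = 2.9e-06). RAD50, of the MRE11 complex, was tested in SJSA-1 alone and fell by 0.42 at 200 nM (adjusted p = 0.00019).

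Transcription machinery and RNA processing genes made up 16 members, of which 12 were lower at 200 nM in SJSA-1, and 11 of 13 were lower at 800 nM in U2-OS. ICE2, of the little elongation complex for small nuclear RNA genes, fell by 0.53 at 200 nM in SJSA-1 (adjusted p = 0.000911) and by 1.26 at 800 nM in U2-OS (adjusted p = 1.13e-07). CPSF2 and CPSF3, subunits of the mRNA cleavage complex of which CPSF3 is the nuclease, fell by 0.37 and 0.29 at 200 nM in SJSA-1, and by 1.02 and 0.60 at 800 nM in U2-OS. SSU72, a phosphatase of the RNA polymerase II C-terminal domain, had SJSA-1 log2 intensities of 9.76, 9.79 and 9.73 with DMSO, 8.88, 8.91 and 8.93 at 50 nM, 9.65, 9.73 and 9.69 at 200 nM, and 9.87, 9.79 and 9.68 at 800 nM. Its arrays at 200 nM lay at or just below the DMSO range, and the change of -0.07 did not pass the test (adjusted p = 0.207), while the mean over all its probe sets changed by 0.27. In U2-OS SSU72 fell by 0.88 at 200 nM (adjusted p = 1.09e-06) and by 0.90 at 800 nM (adjusted p = 8.69e-08). CDK19, a kinase of the Mediator complex, changed by -0.15 at 200 nM in SJSA-1 (adjusted p = 0.132) and fell by 0.50 at 800 nM in U2-OS (adjusted p = 8.6e-05). INTS3, an Integrator subunit, changed by -0.05 at 200 nM in SJSA-1 (adjusted p = 0.559) and was not active in U2-OS.

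DNA-binding and chromatin proteins made up 11 members, of which 10 were lower at 200 nM in SJSA-1 and 7 of 9 were lower at 800 nM in U2-OS. MYBL1, a MYB family transcription factor, fell by 0.61 at 200 nM in SJSA-1 (adjusted p = 3.57e-07) and by 0.43 at 800 nM in U2-OS (adjusted p = 0.00891). NFIB, a nuclear factor I protein, fell by 0.27 at 200 nM in SJSA-1 (adjusted p = 0.00379) and changed by -0.11 at 800 nM in U2-OS (adjusted p = 0.209).

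Receptors and cell surface proteins, 10 members, were all lower at 200 nM in SJSA-1, and 6 of 9 were lower at 800 nM in U2-OS. Over all 10, active there or not, the median U2-OS change at 800 nM was -0.29, nearest to 0 among the 12 role groups. ACVR1, a type I receptor for BMPs and activins, had SJSA-1 changes of -0.61 at 50 nM, where members were chosen, and fell by 0.54 at 200 nM (adjusted p = 0.000252). In U2-OS its log2 intensity was 7.39, 7.46 and 7.33 with DMSO and 7.36, 7.44 and 7.57 at 800 nM, which overlapped, a change of 0.06 (adjusted p = 0.609). BMPR2, the type II BMP receptor, fell by 0.37 at 200 nM in SJSA-1 (adjusted p = 0.00623) and by 0.82 at 800 nM in U2-OS (adjusted p = 1.59e-05). MET, the hepatocyte growth factor receptor, fell by 0.36 (adjusted p = 0.000287) and by 0.27 (adjusted p = 0.00596) in the same comparisons, whereas the mean over all its probe sets changed by 0.14 and 0.28. CD58, a ligand of CD2 on T cells, had U2-OS log2 intensities of 7.53, 7.43 and 7.38 with DMSO, 7.73, 7.65 and 7.70 at 50 nM, 7.60, 7.65 and 7.66 at 200 nM, and 7.01, 7.17 and 7.26 at 800 nM. It lay above DMSO without overlap at 50 and 200 nM and below it at 800 nM. CD58 rose by 0.25 at 50 nM (adjusted p = 0.0381) and 0.19 at 200 nM (adjusted p = 0.0276), and fell by 0.30 at 800 nM (adjusted p = 0.00114). Leaving out U2-OS DMSO replicate 2 or 3, or any of the 50 nM arrays, left 0 members higher at 50 nM.

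Transporters and channels, 11 members, were lower at 200 nM in SJSA-1 in 10 cases and at 800 nM in U2-OS in 8 of 9. SLC26A2, a sulfate transporter needed for cartilage matrix, fell by 0.29 at 200 nM in SJSA-1 (adjusted p = 0.00126) and by 1.57 at 800 nM in U2-OS (adjusted p = 1.58e-08). SLC35B4, a nucleotide sugar transporter, fell by 0.41 (adjusted p = 3.26e-06) and by 1.15 (adjusted p = 1.17e-08). SLC7A11, the cystine transporter, fell by 0.39 at 200 nM in SJSA-1 (adjusted p = 0.000264) and changed by -0.08 at 800 nM in U2-OS (adjusted p = 0.358).

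Mitochondrial proteins made up 17 members, of which 14 were lower at 200 nM in SJSA-1 (41.0% of active genes). All 11 active in U2-OS were lower at 800 nM (36.5%). Over all 17, active there or not, the median U2-OS change at 800 nM was -0.83. It hardly differed from -0.82 for transporters and channels and -0.80 for cell division, centrosome and cilium genes. RHOT1, which links mitochondria to motors, fell by 0.54 at 200 nM in SJSA-1 (adjusted p = 4.55e-06) and by 1.09 at 800 nM in U2-OS (adjusted p = 5.07e-08). MTX2, an outer membrane protein, fell by 0.33 (adjusted p = 9.57e-05) and by 1.11 (adjusted p = 7.61e-09). XPNPEP3, a mitochondrial aminopeptidase, had SJSA-1 log2 intensities of 7.54, 7.58 and 7.50 with DMSO and 7.51, 7.38 and 7.27 at 200 nM, which overlapped, and fell by 0.15 (adjusted p = 0.0304). In U2-OS it fell by 0.93 at 200 nM (adjusted p = 4.43e-06) and by 1.22 at 800 nM (adjusted p = 6.59e-08).

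Of the ubiquitin system, 13 members, 10 were lower at 200 nM in SJSA-1 and all 12 active in U2-OS were lower at 800 nM. DTX3L, an E3 ligase of the DNA damage response, fell by 0.60 at 200 nM in SJSA-1 (adjusted p = 1.2e-05) and by 0.95 at 800 nM in U2-OS (adjusted p = 1.9e-06). Of 16 vesicle and organelle traffic genes, 14 were lower at 200 nM in SJSA-1 and 11 of 12 were lower at 800 nM in U2-OS. SNAPIN, a lysosome and synaptic vesicle adaptor, fell by 0.29 (adjusted p = 1.18e-05) and by 1.16 (adjusted p = 1.07e-08). Of 14 regulators of small GTPases, 4 of them DOCK exchange factors, 13 were lower at 200 nM in SJSA-1 and 7 of 8 were lower at 800 nM in U2-OS. Of 7 actin and cytoskeletal linkers, 6 and 3 of 4 were lower in these comparisons, and of 8 phosphatases, 5 and 7 of 8. PTPN2, a tyrosine phosphatase that acts on JAK kinases, fell by 0.55 at 200 nM in SJSA-1 (adjusted p = 8.65e-07). In U2-OS its log2 intensity was 6.91, 6.81 and 6.97 with DMSO and 7.17, 7.08 and 7.22 at 200 nM, without overlap, a rise of 0.26 (adjusted p = 0.00202). Its other probe sets, both under the active limit, went another way, with changes of 0.60 and 0.65 at 200 nM in SJSA-1 and 0.93 and 0.46 in U2-OS. The remaining 58 members were given no role group.

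**Figure D3:**
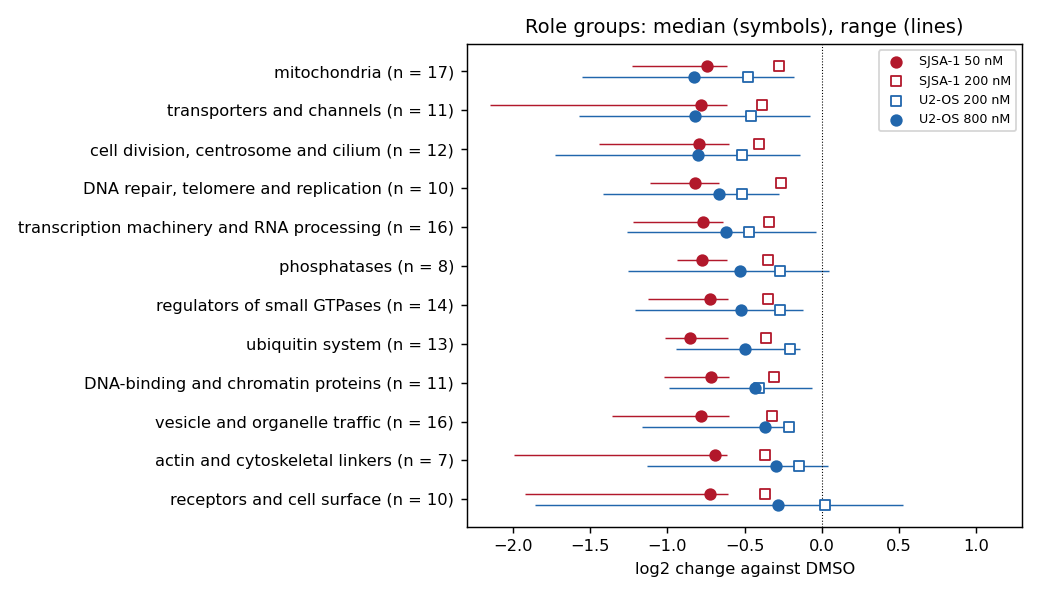
Log2 change from DMSO (x axis) of the members of 12 role groups, with symbols for the median in SJSA-1 at 50 and 200 nM and in U2-OS at 200 and 800 nM, and lines for the range in SJSA-1 at 50 nM and in U2-OS at 800 nM. At 800 nM in U2-OS the medians run from -0.83 for mitochondrial proteins to -0.29 for receptors and cell surface proteins. Medians are over all members of a group, active in U2-OS or not.

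Of the 203 members 20 (9.85%) belonged to any of 30 gene lists of pathways and cell functions, as did 12.4% of all active genes. At 200 nM in SJSA-1 41.0% of all active genes were lower and 33.8% higher, and the list counts below stand beside these shares. No list was tested against the other genes. KIF14 and HMMR were members among the 51 active genes of the G2/M and mitosis list, of which 37 were lower and 3 higher at 200 nM in SJSA-1. BRCA1 and RAD50 were members among 23 active DNA repair and checkpoint genes, of which 18 were lower and 3 higher. CPSF2, CPSF3 and INTS3 were members among 27 active genes of mRNA 3′ end processing and Integrator, of which 14 were lower and 7 higher. BMPR2 and ACVR1 were members among 19 active TGF-beta and BMP signalling genes, of which 14 were lower and 1 was higher. VPS13A and STX12 were members among 47 active membrane traffic and Golgi genes, of which 19 were lower and 10 higher. Each of the other lists with members held a single one. PUS7, a pseudouridine synthase, fell by 0.96 at 800 nM in U2-OS (adjusted p = 1.52e-06) and BCL2L2, an anti-apoptotic BCL2 relative, by 1.27 (adjusted p = 9.61e-08). In the same comparison USP33, a deubiquitinase, fell by 0.69 (adjusted p = 6.36e-05) and MTIF2, a mitochondrial translation initiation factor, by 0.50 (adjusted p = 0.000528). Another active probe set of USP33 went the other way, untested, by 0.62 at 800 nM in U2-OS and 0.64 at 50 nM in SJSA-1. STX12, an endosomal syntaxin, fell by 0.49 at 200 nM in SJSA-1 (adjusted p = 1.24e-06) and VPS13A, a lipid transfer protein, by 0.47 (adjusted p = 0.000379). No member was among 42 cytoplasmic ribosome, 40 oxidative phosphorylation, 24 immediate-early or 32 splicing factor genes that were active, and with 3.09% of active genes being members a count of 0 in lists of this size sets none of them apart.

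At 200 nM the SJSA-1 change was set against the U2-OS change in a single limma fit, in which the SJSA-1 DMSO arrays are again those of the choice. The SJSA-1 change was more negative for 30 of 159 members (35.5% of genes active in both lines) and less negative or higher for 45 (28.4%), and 84 did not pass the test. PTPN2 had the most negative difference, -0.81 (adjusted p = 4.93e-09) on the probe set used, and ACVR1 had -0.67 (adjusted p = 0.000511). SSU72 had 0.81 (adjusted p = 9.4e-09), CBX5 0.70 (adjusted p = 1.15e-08), NRP1 0.70 (adjusted p = 0.000562) and BRCA1 0.63 (adjusted p = 0.0053). Of 8 DNA repair, telomere and replication members tested, 6 had a less negative change in SJSA-1 and 0 a more negative one. The split depended on the scale: with arrays shifted to their hybridization controls 70 members were more negative in SJSA-1 and 11 less, and with arrays shifted to their poly-A controls 2 and 19.

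**Figure D4:**
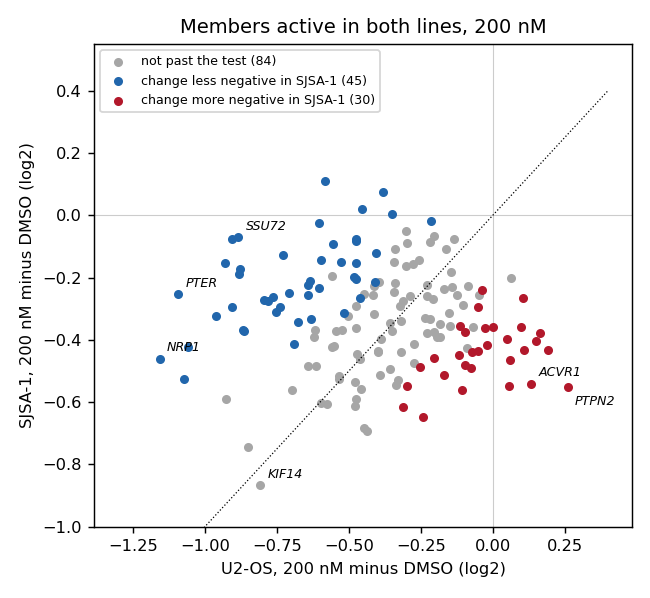
Log2 change at 200 nM in U2-OS (x axis) against that in SJSA-1 (y axis) for the 159 members active in both lines, coloured by the limma test of the difference. The 45 members less negative in SJSA-1 lie above the line of equal change, the 30 more negative ones lie under it, and 84 did not pass the test.

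The members' genes were long. Their median RefSeq gene span was 59.3 kb, against 30.4 kb over all active genes, 25.0 kb over the 385 genes low at 800 nM only and 44.6 kb over the 598 low at both doses. Spans over 100 kb were found for 61 members (30.0%) and 16.5% of active genes, and spans under 10 kb for 16 members (7.88%) and 20.2%. ATP10D spanned 108 kb, MYPN 124 kb, NRP1 157 kb and BRCA1 126 kb, whereas CENPQ spanned 29.7 kb. The members were dimmer than the active genes, with a median DMSO log2 intensity in SJSA-1 of 7.60 against 8.22, and active genes of higher intensity were shorter. Within the lowest, middle and highest of 3 equal ranges of rank by DMSO intensity, the members' median span was 60.7, 55.3 and 58.5 kb and that of active genes 36.4, 34.8 and 23.2 kb. The brightest member was LTAP1, also known as C1orf43, at 11.12. These spans are a description, and no test of the members' span was made.

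**Figure D5:**
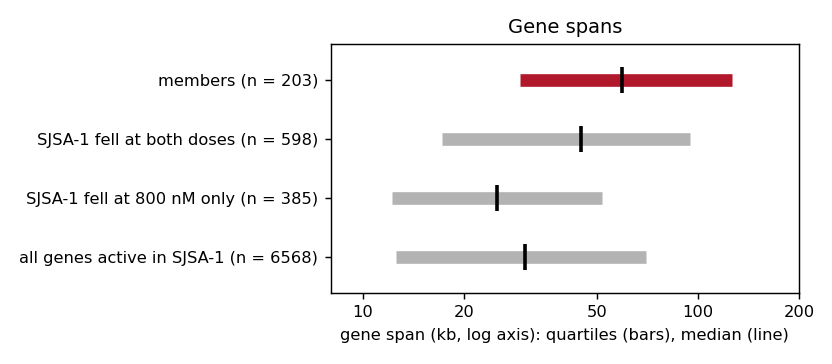
RefSeq gene span in kb (log axis) of the members, of all genes active in SJSA-1 and of the genes low at 800 nM only or at both doses, with bars for the quartiles and a vertical line for the median. The members' median of 59.3 kb is above the 30.4 kb of all active genes and the 44.6 kb of genes low at both doses.

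A single probe set stood for each gene. Another 172 probe sets of 84 members were also active, and 165 of these lay below DMSO at 50 nM in SJSA-1 (44.4% of 6790 such probe sets of the other active genes), on the arrays that chose the members, with medians of -0.63, -0.28 and -0.02 at 50, 200 and 800 nM. Of the 172, 75, from 53 members, met the same limits as the members, against 1.61% of the 6790, which is a description of agreement between probe sets of chosen genes and no test. Those nearest inside the limit of -0.6 at 50 nM were MBD6, VPS54 and CNRIP1 at -0.60, and nearest outside were RWDD2B, SLC35F6 and HABP4 at -0.59. At the 800 nM limit ACVR1, ARHGAP19 and ARMCX2 at -0.19 were just inside, and CAPN7, SELENOI and DENND6A at -0.20 just outside.

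The deposited values put the median of each array near a common level, and the control RNAs of the arrays did not stay level. The 24 probe sets of poly-A controls, which the Affymetrix protocol adds to the total RNA, rose from DMSO by 0.51, 0.47 and 0.54 at 50, 200 and 800 nM in SJSA-1 and by 0.10, 0.55 and 0.94 in U2-OS (log2). The 18 probe sets of hybridization controls changed by 0.22, 0.18 and 0.21 in SJSA-1 and by -0.18, -0.10 and -0.06 in U2-OS. With arrays shifted to the poly-A controls, the members' median in SJSA-1 became -1.25, -0.82 and -0.56 at 50, 200 and 800 nM, while that of all active genes became -0.55, -0.49 and -0.53. A return to the DMSO level at 800 nM was therefore a return relative to the other genes of the array: under this shift the same limits picked 114 genes, 6 of them members. The members' median minus that of all active genes was -0.70, -0.33 and -0.04 in SJSA-1 on either scale. A shift moves all genes of an array alike, so this difference could not change. The part of the controls in these results was not tested.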

How the data were processed

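Total RNA of U2-OS and SJSA-1 cells was hybridised to 24 PrimeView arrays (3 per group, 12 per line). The authors deposited linear intensity values for 49372 probe sets, and the submitters' processing notes name MAS5 and RMA with no version. Deposited values ran from 3.43 to 9675, and their log2 lay on whole hundredths within 6.84e-10, as RMA values rounded to 2 decimals would. RMA equalises array distributions, so a change common to most genes is removed. Genome build and annotation of the arrays were not given in the sources used here. Every value column was mapped to a sample, and 0 were left out.

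Of the probe sets, 44994 named 1 gene symbol and were kept, while 1832 with several symbols and 2546 with none were left out. Symbols were updated through Entrez IDs to RefSeq (44967 matched, 27 kept). The log2 intensity was used without a pseudocount. Each line was fitted over its 4 groups with limma 3.58.1 (lmFit, eBayes, two-sided) in R 4.3.3, with p-values adjusted by Benjamini-Hochberg over its active genes (6568 in SJSA-1, 6741 in U2-OS), and a call was an adjusted p under 0.05. The difference between lines at 200 nM was fitted over all 24 arrays for 5851 genes active in both. Tables and figures used Python 3.11.15, pandas 2.3.3, numpy 2.4.6 and matplotlib 3.10.9, and statmod 1.5.0 was loaded beside limma. The fit was tested on simulated data: in SJSA-1 (6568 genes) it recovered 92% of changes of 0.5 and 57% of changes of 0.25 (log2) with 7 false calls, and in U2-OS (6741 genes) 86% and 38% with 8. The simulated noise was drawn independently for each gene, and 100 genes were changed by each size. On the real SJSA-1 arrays at 200 nM, 41.0% of active genes were called lower and 33.8% higher. The recovery and false calls hold for the simulated setting only. The number of arrays limits the precision.

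Members and gene lists were chosen with earlier results of these data known. Named genes were the members lowest at 50 nM in SJSA-1, the highest and lowest at 200 nM, the largest called changes in U2-OS at 50 and 800 nM, those nearest each limit, members of the lists, the brightest members, and MDM2. The role groups and the other genes named were chosen after their values were seen. Alternatives changed the fit, filter, probe set choice, pseudocount and scaling, or left out an array.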

Additional observations from a re-analysis of the deposited data

Results flagged for a closer look

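For 24 of the named members the log2 change at 200 nM differed between the lines in the limma test of the difference itself (SJSA-1 change minus U2-OS change, 3 arrays in each of 4 groups, adjusted p under 0.05). Such a difference was the usual outcome, since the same test called 35.5% of 5851 genes lower and 28.4% higher, against 18.9% and 28.3% of the 159 members tested. Over the 159 members it was negative for 30 and positive for 45. PTPN2, the most negative of them, was chosen for naming after its values were seen and is not among the 24. Of the 24, the difference was negative for 4, -0.67 for ACVR1, -0.37 for NFIB, -0.34 for MET and -0.23 for STX12. Of these, ACVR1 and NFIB had U2-OS changes above 0, at 0.13 and 0.10. It was positive for the other 20, which means a less negative or higher change in SJSA-1. The largest positive differences were 0.84 for PTER, 0.81 for SSU72, 0.70 for CBX5, 0.70 for NRP1, 0.69 for C6orf120, 0.64 for SFR1, 0.63 for BRCA1 and 0.61 for SLC26A2. Intermediate ones were 0.55 for ICE2, 0.52 for UBE2V2, 0.50 for NEMP1, 0.50 for BMPR2, 0.49 for CPSF2, 0.47 for ABR, 0.45 for ATG12 and 0.45 for SNAPIN. The smallest were 0.42 for PUS7, 0.39 for BCL2L2, 0.38 for CDK19 and 0.29 for LTAP1. Shifting the arrays to their control RNAs moves every such difference by a common amount, as given in the report for the counts.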

How the results depend on the processing

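Of 287 recomputed counts and medians, 218 stayed within their limits (1.5 times for a count, the spread between arrays for a median). Of 4305 recomputed values for 210 results of 50 named members, 4068 kept their side of the threshold, 142 lost the call and 71 gained one. The other 24 turned sign with a call in the main fit, the alternative or both. Among the 4068, 87 turned sign with a call in neither fit, and the rest kept their direction. The cause of these changes was not tested beyond what each alternative's construction shows.

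With a DMSO mean above 200, fewer genes were tested: 98 members were picked, and 89, 60 and 74 were lower at 200 nM in SJSA-1 and at 200 and 800 nM in U2-OS, 0 were higher at 50 or 200 nM in U2-OS, and 10 were more and 18 less negative in SJSA-1. With no filter on low values, 4 were lower and 0 higher at 50 nM, 1 higher at 200 nM and 1 higher at 800 nM in U2-OS. With only the groups compared in the fit, 5 were lower and 0 higher at 50 nM in U2-OS. With the mean of all probe sets, the limits picked 92 genes, 67 of them members. On this mean 7 members were higher at 200 nM in SJSA-1 and 6 at 200 and 6 at 800 nM in U2-OS. The medians were -0.21 (SJSA-1, 200 nM), -0.28 and -0.45 (U2-OS, 200 and 800 nM). With arrays centred on their median, 1 member was higher at 200 nM in SJSA-1 and the U2-OS median at 800 nM was -0.56. The limits then picked 224 genes, 158 of them members. With quantile normalization repeated, 5 were higher at 200 nM in SJSA-1, 2 at 50 nM in U2-OS, and the SJSA-1 median at 200 nM was -0.25. Here the limits picked 187 genes, 147 of them members. With log2(value + 16) the U2-OS median at 800 nM was -0.54. The limits -0.8 and -0.1 picked 58 genes.

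By poly-A controls, 0 members were lower or higher at 50 nM and 0 higher at 200 nM in U2-OS, 2 were more and 19 less negative in SJSA-1, and the medians were -0.82 (SJSA-1, 200 nM) and -0.17, -0.93 and -1.55 (U2-OS, rising dose). By both kinds of control, 0 were lower or higher at 50 nM and 0 higher at 200 nM in U2-OS, 26 were less negative in SJSA-1, and the medians were -0.69, -0.66 and -1.12 (SJSA-1 at 200 nM, U2-OS at 200 and 800 nM). By hybridization controls, an alternative chosen after seeing the data, 0 were lower and 34 higher at 50 nM and 5 higher at 200 nM in U2-OS, 70 were more and 11 less negative in SJSA-1, and the medians were -0.53 (SJSA-1, 200 nM), -0.29 and -0.55 (U2-OS, 200 and 800 nM). The U2-OS median at 50 nM turned to 0.11. The limits picked 114, 164 and 212 genes under these shifts, of which 6, 22 and 86 were members.

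The named results that turned sign with a call in either fit were mostly small. At 200 nM in SJSA-1 the mean of all probe sets gave 0.06 for METTL15, -0.13 for UQCC1, -0.10 for ABR, 0.27 for SSU72, 0.14 for MET and 0.053 for LTAP1. In U2-OS it gave 0.23 and 0.28 for MET (200 and 800 nM), 0.083 for USP33 (200 nM) and 0.13 for VPS13A (800 nM). Shifts by both and by poly-A controls gave, at 200 nM in SJSA-1, -0.33 and -0.46 for UQCC1, -0.32 and -0.45 for ABR, -0.27 and -0.40 for ATG12, -0.26 and -0.38 for CEP41, and -0.23 and -0.36 for C6orf120. For ACVR1 at 800 nM in U2-OS they gave -0.45 and -0.88, and the poly-A shift at 200 nM in U2-OS gave -0.42 for ACVR1 and -0.45 for NFIB.

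Leaving out each array in turn gave 162 to 176 members lower and 0 to 1 higher at 200 nM in SJSA-1 (1 without SJSA-1 DMSO replicate 2). In U2-OS it gave 1 to 12 lower and 0 to 1 higher at 50 nM, 106 to 121 lower and 1 to 3 higher at 200 nM (1 without DMSO replicate 2 or 3 or 200 nM replicate 3), and 139 to 146 lower and 0 to 0 higher at 800 nM. The difference between lines gave 26 to 33 more and 41 to 55 less negative in SJSA-1. The limits picked 191 to 219 genes, of which 178 to 197 were members. The medians ran from -0.39 to -0.31 (SJSA-1, 200 nM), and in U2-OS from -0.12 to -0.04, -0.43 to -0.33 and -0.62 to -0.59.

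Same-numbered arrays share only a number: their deviations from the group means over genes had a median r of -0.06 in SJSA-1 and -0.05 in U2-OS. The replicate block left 171 members lower at 200 nM in SJSA-1, 9 members lower at 50 nM in U2-OS, 115 members lower at 200 nM in U2-OS and 142 members lower at 800 nM in U2-OS. The block removed the 1 call of a rise at 50 nM (0), left 0 and 2 higher at 200 nM in SJSA-1 and U2-OS, and gave 29 more and 44 less negative in SJSA-1.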

Other observations

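Some members had other probe sets that moved the opposite way. Of 477 further probe sets of 172 members, 30, from 20 members, lay at least 0.6 above DMSO at 50 nM in SJSA-1 (6.29%), of which 4 were active and 28 lay above DMSO at 800 nM in U2-OS. Among the other active genes 924 of 13084 further probe sets did so (7.06%), so the share was not particular to the members. MET had a pair of dim ones with SJSA-1 changes of 2.38 and 1.47 at 50 nM, and U2-OS changes of 1.66 and 0.95 at 800 nM. DST, dystonin, had one at 2.75 at 50 nM in SJSA-1 and 1.85 at 800 nM in U2-OS, while its brightest probe set was chosen on -0.65. SSU72 had an active one at 1.23 at 50 nM in SJSA-1 and 0.33 at 800 nM in U2-OS. No test was made of these values, and which stretch of the transcript each probe set reads was not analysed here.

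For 2 members another active probe set lay at least 0.6 below DMSO at 800 nM in SJSA-1. Further members had active probe sets past the 800 nM limit of the choice by less, among them KIF14 at -0.26 and TRMT13 at -0.52 and -0.47. An active probe set of HNRNPDL, an RNA-binding protein that regulates splicing, changed by -0.91, -2.15 and -2.98 at 50, 200 and 800 nM in SJSA-1, while the one that stood for the gene changed by -0.85, -0.45 and -0.17. For AP5M1, a subunit of the AP-5 adaptor, a pair of active probe sets changed by -0.63 and -0.62 at 800 nM in SJSA-1, against -0.18 for the one used.

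The members were spread over the chromosomes, with 22 of 653 active genes on chromosome 1 (3.37%) and 19 of 457 on chromosome 2 (4.16%). Over all active genes the share was 3.09%. Among chromosomes with members it was highest on chromosome 13, at 7 of 122 (5.74%), and lowest on chromosome 19, at 4 of 352 (1.14%). No test was made of these shares.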
